A study of Bos taurus with 9 samples.

Results

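The hypoblast, or primitive endoderm, is the epithelium that forms under the inner cell mass of the late blastocyst and gives rise to the yolk sac. In mammals, inner cells that receive FGF signals through MAP kinase keep GATA6 and lose NANOG, and GATA6 is followed by GATA4 and SOX17, transcription factors of the hypoblast. Cells further along make HNF4A, a nuclear receptor of visceral endoderm and liver, and secrete apolipoproteins and growth factors. Here 9 genes of this lineage were followed in bovine blastocysts, chosen by symbol from the count table, where all 9 are among its 22127 genes and each symbol has 1 row. They are the transcription factor genes GATA4, GATA6, SOX17, HNF4A and FOXA2, the receptor gene PDGFRA, and the genes of the secreted proteins BMP2, RSPO3 and APOA1. All 9 were among the 16469 genes that passed the filter on low counts.

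The embryos came from oocytes matured inside their cumulus cells for 24 h in 1 of 3 media: low glucose with BHB (2.75 mM glucose and 1.8 mM BHB, taken here as beta-hydroxybutyrate, a ketone body), low glucose (2.75 mM) and control (5.5 mM). All 3 media held fetal bovine serum, pyruvate, gentamicin, FSH and estradiol, and in vitro fertilisation and culture to day 8 were alike for the 3 groups. The treatments thus differed before fertilisation and not after it. Each medium has 3 RNA sequencing libraries, each from a pool of 9 to 11 whole blastocysts, so the hypoblast was measured together with trophectoderm and epiblast. In such bulk samples fewer cells of a type and less RNA per cell cannot be told apart. Whether the pools of a medium stem from separate culture runs is not given in the labels. The p-values therefore reflect the spread between these pools, which may be technical.

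Libraries held 55611205 to 75178898 estimated counts. Markers of trophectoderm and epiblast were present in every library. The summed level of 22 trophectoderm markers was 21152 to 26144 CPM in low glucose with BHB, 20532 to 23383 CPM in low glucose and 17130.2 to 22441 CPM in control. Levels are CPM, estimated counts scaled to the library total with TMM factors. The table holds no transcript lengths, so levels were compared between libraries and not between genes. Replicate 1 of each medium stood apart from replicates 2 and 3 on the principal component after the one that separates control from the rest (18.3% of variance; 20.8 in low glucose with BHB, 10.8 in low glucose and 33.8 in control, against -20.9 to -4.58 in the other 6 libraries).

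**Figure D1:**
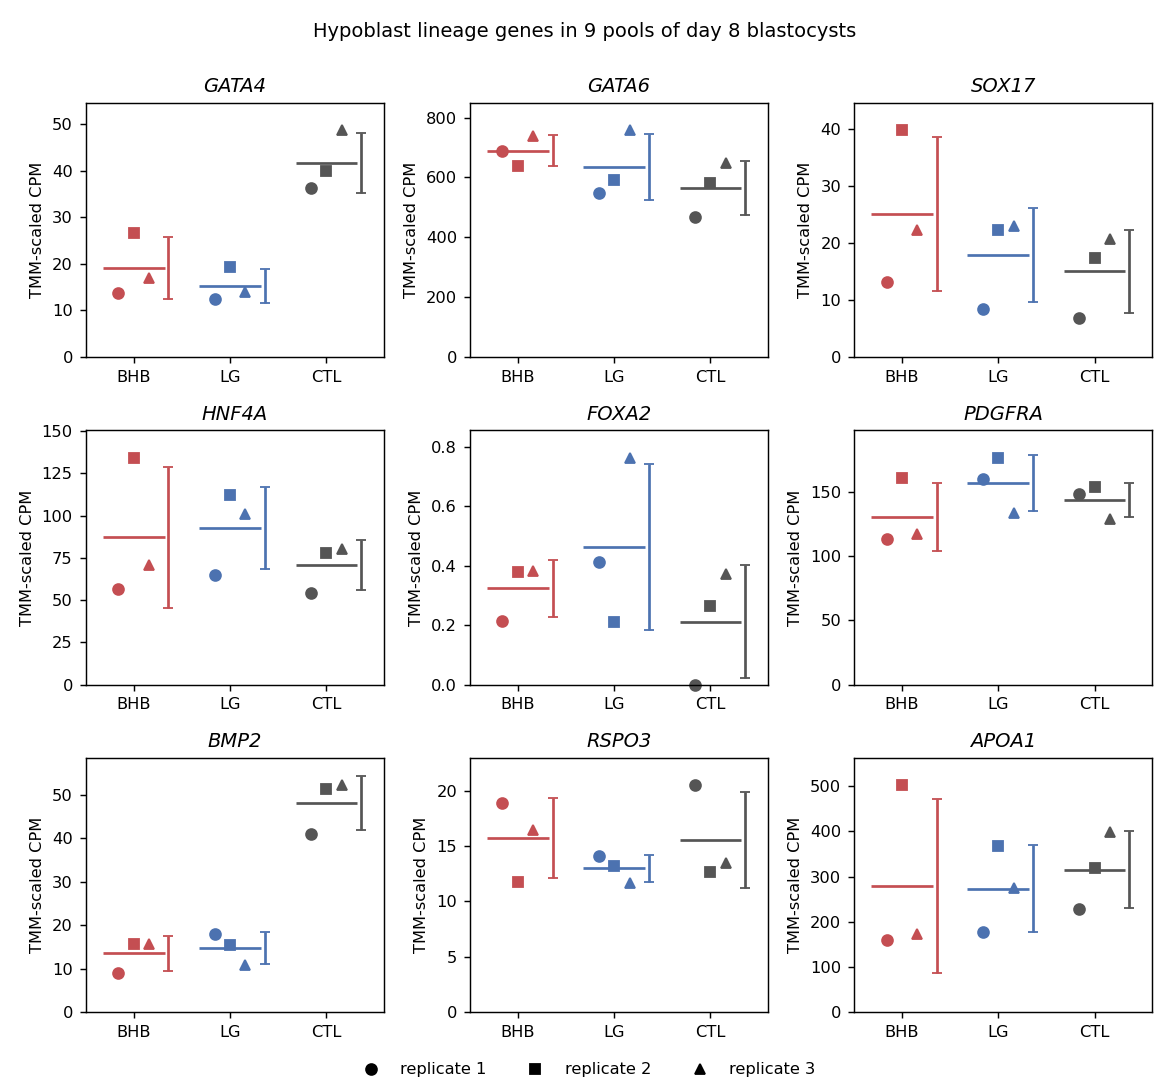
Level of each hypoblast lineage gene in each of the 9 libraries, in TMM-scaled CPM on axes that start at 0; BHB is low glucose with BHB, LG low glucose and CTL control, symbols are replicates, horizontal lines are means and vertical bars are SD (n = 3). GATA4 and BMP2 lie between 8.97 and 26.5 CPM in the 6 low glucose libraries and between 36.2 and 52.2 CPM in the control libraries, while the groups of the other 7 genes overlap.

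GATA4, which encodes a zinc finger transcription factor of the hypoblast, was lower in blastocysts from both low glucose media than in controls. It was measured at 13.8, 26.5 and 16.9 CPM in replicates 1 to 3 of low glucose with BHB, at 12.4, 19.4 and 14.0 CPM in low glucose and at 36.2, 40.0 and 48.7 CPM in control. No library of either low glucose medium reached the lowest control library. Against control, GATA4 was 2.73-fold lower in low glucose, a log2 fold change of -1.45 (SE 0.246, 95% interval -1.99 to -0.91, edgeR adjusted p = 0.00802). With BHB it was 2.18-fold lower than in control, a log2 fold change of -1.13 (SE 0.244, 95% interval -1.66 to -0.60, edgeR adjusted p = 0.0432).

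The call for GATA4 in low glucose held in all 17 alternatives, with log2 values of -1.65 to -1.30 and adjusted p of 6.27e-07 to 0.0478. The call with BHB was close to the threshold and held in 9 of 17, over which adjusted p ran from 0.000458 to 0.219. It was lost without control replicate 1 (-1.22), control replicate 2 (-1.16), control replicate 3 (-0.98), BHB replicate 1 (-0.94), BHB replicate 3 (-1.05) or low glucose replicate 3 (-1.13), in the fit of the 6 libraries compared (-1.12) and in replicates 2 and 3 alone (-1.03). The direction stayed downward in each of these.

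GATA6, the gene of the related factor that acts earlier and is not restricted to the hypoblast at this stage, did not pass in any comparison. Its level was 690.0, 639 and 740.0 CPM in low glucose with BHB, 549.6, 592 and 758 CPM in low glucose and 467, 580.2 and 647 CPM in control. The highest 2 libraries belong to the low glucose media and the lowest is control replicate 1, but the groups overlap. The log2 difference from control was 0.29 with BHB (95% interval -0.04 to 0.61) and 0.17 in low glucose (-0.16 to 0.49). A fall of the size measured for GATA4 lies outside both intervals.

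SOX17, the gene of an SRY-related factor of the hypoblast, varied more between pools of 1 medium than between media. It stood at 13.1, 39.9 and 22.4 CPM in low glucose with BHB, 8.41, 22.4 and 23.0 CPM in low glucose and 6.79, 17.5 and 20.8 CPM in control, and replicate 1 was the lowest of its medium in all 3. Its log2 difference from control was 0.74 with BHB (SE 0.474, 95% interval -0.29 to 1.77, edgeR adjusted p = 0.886) and 0.25 in low glucose (SE 0.473, -0.78 to 1.28, edgeR adjusted p = 0.997). Intervals this wide leave room for a rise of more than 2-fold.

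HNF4A was measured at 56.3, 134 and 70.6 CPM in low glucose with BHB, 65.1, 112 and 101 CPM in low glucose and 54.1, 78.0 and 80.3 CPM in control. Replicate 2 with BHB was the highest library and control replicate 1 the lowest, and no comparison passed. The log2 difference from control was 0.30 with BHB (-0.34 to 0.94) and 0.39 in low glucose (-0.25 to 1.03).

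FOXA2, the gene of a forkhead factor of definitive and visceral endoderm, was barely detected. Its counts were 13, 28 and 21 in low glucose with BHB, 27, 15 and 45 in low glucose and 0, 19 and 25 in control. The library with no count, control replicate 1, allows up to 0.0504 CPM, the level of 3 counts, while the other 8 lay between 0.211 and 0.763 CPM. Exact Poisson intervals, which cover counting error alone, ran from 0.557 to 1.02 CPM in the highest library, low glucose replicate 3, and from 0.159 to 0.414 CPM in control replicate 2. The limit for control replicate 1 lies below that interval, so the control pools differed by more than counting error. No comparison passed, and the 95% interval of the log2 difference between low glucose and control ran from -1.30 to 3.52, so a change was not detectable with these counts and this spread between pools.

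PDGFRA encodes the receptor for PDGF-A that marks the hypoblast in mouse. Its levels were the steadiest of the members beside those of GATA6, with an SD within media of 0.21 in log2 CPM against 0.21 for GATA6 and 0.83 for SOX17. They came to 114, 161 and 117 CPM in low glucose with BHB, 160.3, 177 and 134 CPM in low glucose and 149, 154 and 129 CPM in control. The log2 difference from control was -0.14 with BHB (-0.48 to 0.20) and 0.12 in low glucose (-0.21 to 0.46). PDGFRA is the sole member whose estimated counts are not whole numbers, in all 9 libraries. Estimated counts take such values where reads match transcripts of several genes, so its level is less certain than those of the other members.

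BMP2, the gene of a bone morphogenetic protein secreted by extraembryonic endoderm, had the largest fall of the 9 members in both comparisons with control. It was measured at 8.97, 15.8 and 15.7 CPM in low glucose with BHB and 18.0, 15.4 and 10.8 CPM in low glucose, against 41.0, 51.4 and 52.2 CPM in control. Every control library held more than 2 times the level of every low glucose library. BMP2 was 3.57-fold lower than in control with BHB (log2 fold change -1.84, SE 0.243, 95% interval -2.36 to -1.31, edgeR adjusted p = 0.00418) and 3.27-fold lower in low glucose (-1.71, SE 0.241, -2.24 to -1.18, edgeR adjusted p = 0.00296). Both calls held in all 17 alternatives, with adjusted p of 3.02e-11 to 0.0257 with BHB and 3.95e-10 to 0.0166 in low glucose.

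RSPO3, the gene of a secreted R-spondin that strengthens WNT signals, did not pass. It stood at 18.9, 11.8 and 16.5 CPM in low glucose with BHB, 14.1, 13.2 and 11.7 CPM in low glucose and 20.5, 12.7 and 13.5 CPM in control, and replicate 1 was the highest of its medium in all 3. The log2 difference from control was 0.02 with BHB (-0.47 to 0.50) and -0.26 in low glucose (-0.75 to 0.23).

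APOA1, which encodes the main protein of high-density lipoprotein and is made by visceral endoderm and later by liver, ranged widely between pools. Its level was 161, 502 and 174 CPM in low glucose with BHB, 177, 368 and 275 CPM in low glucose and 228, 319 and 398 CPM in control. The highest and the lowest library of all 9 were both from low glucose with BHB. The log2 difference from control was -0.18 with BHB (-1.04 to 0.68) and -0.21 in low glucose (-1.07 to 0.65).

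Counted together, 2 of the 9 members were lower in low glucose than in control and 0 were higher, in a comparison where 2.02% of all tested genes were called lower and 0.00607% higher. With BHB, 2 of 9 were lower and 0 higher than in control, where 1.38% of all genes were called lower and 0.00607% higher. The members were chosen with results of these data known, and both comparisons share the control libraries, so the counts are a description. The median log2 difference over the 9 members was 0.02 with BHB and 0.12 in low glucose, against 0.0096 and 0.02 over all 16469 genes. GATA4 and BMP2 were also the members whose groups did not overlap, where 8.56% of all tested genes lay wholly below control with BHB and 8.85% in low glucose. Besides GATA4 and BMP2, no member was below 0.05 in either comparison with control at an unadjusted p.

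**Figure D2:**
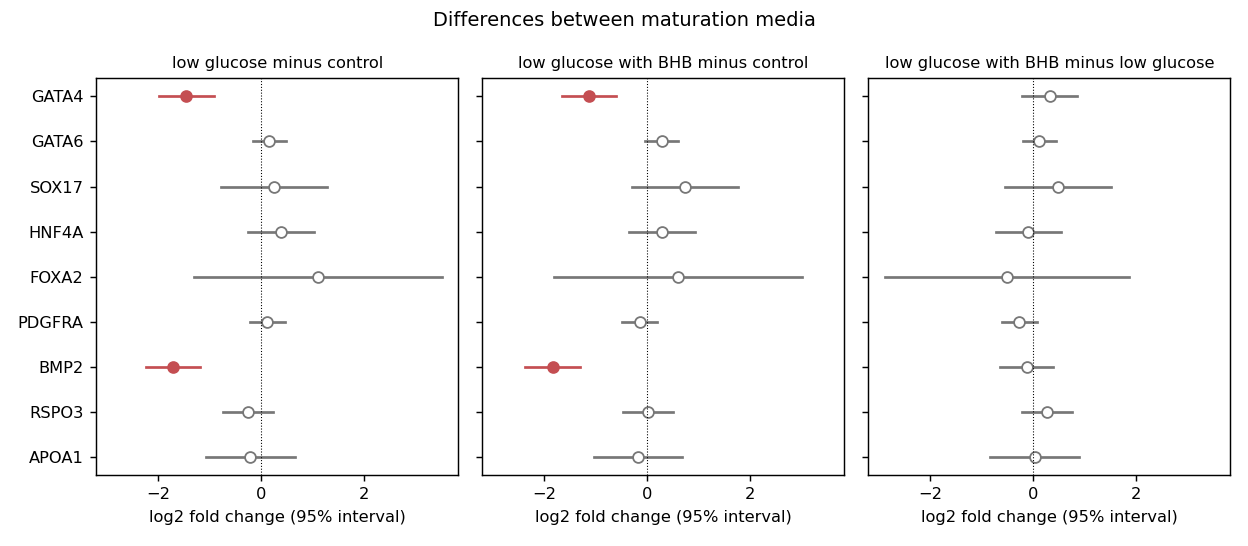
Log2 fold change of each member between media, from the edgeR fit of all 9 libraries, with 95% intervals; the first group named above a panel is higher to the right of 0, and filled red points passed an adjusted p of 0.05. GATA4 and BMP2 lie between -1.84 and -1.13 in both comparisons with control, and all intervals between the 2 low glucose media include 0.

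GATA4 and BMP2 are also made by granulosa cells, and BMP2 by mesenchymal cells, so markers of both were read in the same libraries. Of 19 tested stromal and fibroblast genes, 8 fell with BHB and 9 in low glucose, with medians of -1.61 and -1.70. Over all tested genes, 1.38% and 2.02% were called lower. Their summed level was 309 to 536 CPM with BHB and 287 to 513 CPM in low glucose, against 846 to 1686 CPM in control, and FAP was under 1 CPM in every library. FBN1, the fibrillin gene, averaged 7.38 ± 0.903 CPM and 8.16 ± 0.825 CPM, against 37.9 ± 19.6 CPM in control, and COL5A1, a fibrillar collagen gene, 13.6 ± 4.94 CPM and 9.82 ± 6.18 CPM, against 76.7 ± 8.33 CPM. LUM, the gene of the matrix proteoglycan lumican, stood at -3.50 with BHB and -3.28 in low glucose, and VIM, the vimentin gene, at -1.77 and -1.64. These 4 genes passed in both comparisons (edgeR adjusted p = 0.00588 at most with BHB and 0.00348 at most in low glucose), and VIM lost both calls in replicates 2 and 3 alone. COL1A1 did not pass, nor did COL1A2, at -1.29 (edgeR adjusted p = 0.0789) and -1.34 (edgeR adjusted p = 0.0511). COL1A2 passed in 4 of 17 alternatives with BHB and 10 of 17 in low glucose, among them the replicate block (edgeR adjusted p = 0.00237 and 0.00128).

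Of 22 cumulus and granulosa cell genes, 6 fell with BHB and 7 in low glucose, with medians of -0.90 and -0.98. The shares called lower over all tested genes were 1.38% and 2.02%. NR5A1, the gene of steroidogenic factor 1, which acts with GATA4 in the gonad, averaged 1.95 ± 0.877 CPM and 1.10 ± 0.207 CPM, against 7.54 ± 1.10 CPM in control (edgeR adjusted p = 0.0164 and 0.00185). Its call with BHB held in 14 of 17 alternatives and was lost without BHB replicate 3 or control replicate 3 and in replicates 2 and 3 alone. VCAN, the versican gene of the expanding cumulus, averaged 7.71 ± 2.29 CPM and 12.8 ± 11.1 CPM, against 74.9 ± 1.52 CPM (edgeR adjusted p = 0.00578 and 0.0117), and lost its call in low glucose without low glucose replicate 3. NR5A2, a related nuclear receptor gene, stood at -1.37 with BHB and -1.71 in low glucose (edgeR adjusted p = 0.016 and 0.00309), the call with BHB holding in 12 of 17 alternatives and being lost without BHB replicate 1 or 3 or control replicate 1 or 3 and in replicates 2 and 3 alone. DCN, the decorin gene, stood at -2.56 and -2.14 (edgeR adjusted p = 0.00536 and 0.00763) and lost both calls in replicates 2 and 3 alone. CYP19A1, FSHR and LHCGR, picked from this list for their roles in granulosa cells with their values seen, did not pass. They are not typical of the list, whose medians were -0.90 with BHB and -0.98 in low glucose. CYP19A1 (aromatase) averaged 22.4 ± 4.93 CPM with BHB, 19.5 ± 1.16 CPM in low glucose and 21.2 ± 6.47 CPM in control, FSHR averaged 3.60 ± 0.268 CPM, 4.85 ± 1.02 CPM and 4.18 ± 0.561 CPM, and LHCGR was under 1 CPM in every library. The summed level of the list, most of it PTGS2, which trophectoderm also makes, overlapped between media, at 612 to 1175 CPM with BHB, 541 to 1281 CPM in low glucose and 876 to 1011 CPM in control. Of the 22 genes, LUM and DCN stand in the stromal list too, PTGS2 among the trophectoderm markers and GREM1 in the BMP list. The part of either cell type in the lower GATA4 and BMP2 was not tested.

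The effect of adding BHB to low glucose was tested directly, and no member passed. By edgeR 0 of 16469 genes passed (0%), with 270 at an unadjusted p under 0.05, none of them a member. DESeq2 called 2 genes, neither of them a member, and limma-voom called 0. GATA4 averaged 19.1 ± 6.64 CPM with BHB and 15.2 ± 3.70 CPM in low glucose (SD, n = 3 each), a log2 difference of 0.32 (95% interval -0.21 to 0.85). BMP2 averaged 13.5 ± 3.92 CPM with BHB and 14.7 ± 3.66 CPM in low glucose, a difference of -0.13 (-0.64 to 0.39). SOX17 had a difference of 0.49 (-0.54 to 1.52) and APOA1 of 0.03 (-0.83 to 0.89), so a rise of 2-fold lies within the interval of SOX17, and that of APOA1 ends just short of it. The interval of PDGFRA was narrower, -0.60 to 0.07 around -0.27.

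Within each medium, several members were high or low in the same pools. HNF4A, APOA1, SOX17 and GATA4 were lowest in replicate 1 of all 3 media, an order that 8.00% of all tested genes show, and RSPO3 was highest there, as were 7.61% of genes. Taking each library as its deviation from the mean of its medium in log2 CPM, HNF4A lay between -0.53 and -0.37 in the 3 replicate 1 pools, and at 0.73 in replicate 2 with BHB, the library richest in HNF4A, APOA1 and SOX17. APOA1 deviated in that library by 1.06 and SOX17 by 0.81.

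Over the 9 deviations, Pearson's r was highest for HNF4A and APOA1 (Pearson r = 0.97, exact permutation p = 0.00463, adjusted p = 0.0556; Spearman rho = 0.97, p = 0.00463, adjusted p = 0.0556). Next by r came GATA4 and APOA1 (Pearson r = 0.95, exact permutation p = 0.00463, adjusted p = 0.0556; Spearman rho = 0.97, p = 0.00463, adjusted p = 0.0556). GATA4 and HNF4A had the highest Spearman coefficient (Pearson r = 0.92, exact permutation p = 0.00463, adjusted p = 0.0556; Spearman rho = 1.00, p = 0.00463, adjusted p = 0.0556). SOX17 and HNF4A had similar values (r = 0.93, exact permutation p = 0.00926, adjusted p = 0.0667; rho = 0.85, p = 0.0231, adjusted p = 0.0926). RSPO3 went the other way from HNF4A (r = -0.86, exact permutation p = 0.0185, adjusted p = 0.0952; rho = -0.83, p = 0.0185, adjusted p = 0.0926). The tests were two-sided, libraries were exchanged within media, 0.00463 is the smallest p that the 216 arrangements can give, and p-values were adjusted over 36 pairs. Of these pairs, 10 were below 0.05 unadjusted and 0 after adjustment, so no pair passed. Without the 2 libraries farthest from the median of the first gene named, r was 0.97 for HNF4A and APOA1, 0.89 for GATA4 and APOA1, 0.85 for GATA4 and HNF4A, 0.93 for SOX17 and HNF4A and -0.86 for HNF4A and RSPO3. In replicates 2 and 3 alone (6 libraries) the same 5 pairs gave 0.98, 0.93, 0.86, 0.95 and -0.85. There the deviations within a medium are equal and opposite, so each r rests on a single difference per medium. These values are thus less certain than those over 9 libraries. BMP2 did not share this pattern as closely, with r = 0.49 to GATA4 (exact permutation p = 0.292, adjusted p = 0.477; rho = 0.28, p = 0.569, adjusted p = 0.707; r = 0.39 without the 2 farthest libraries).

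**Figure D3:**
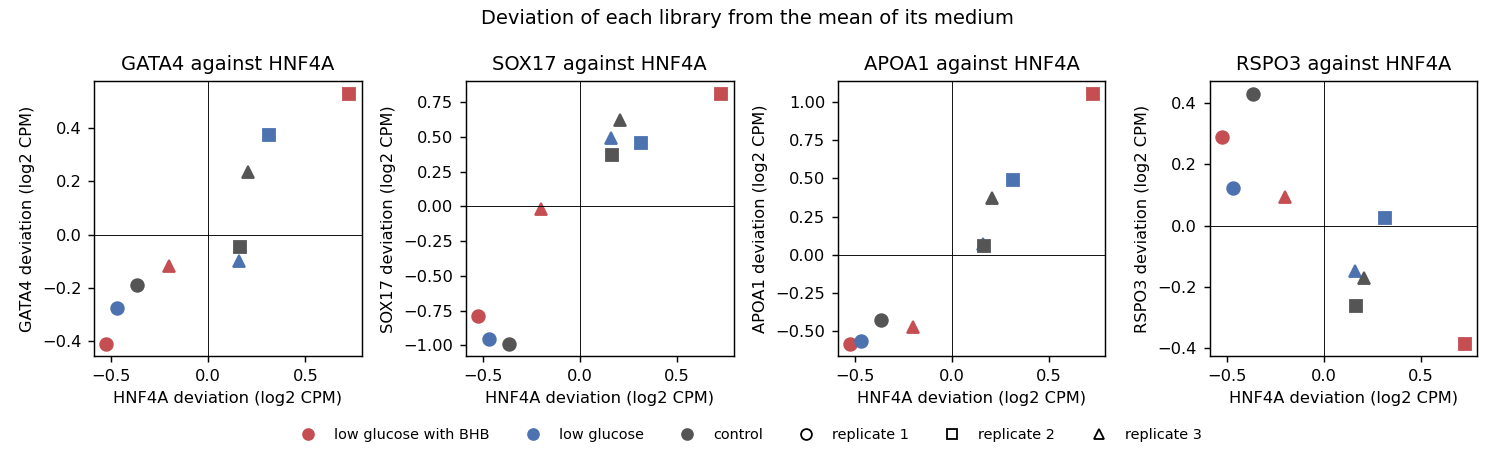
Deviation of each library from the mean of its medium in log2 CPM, for GATA4, SOX17, APOA1 and RSPO3 against HNF4A; colours are media and symbols are replicates. GATA4, SOX17 and APOA1 rise with HNF4A and RSPO3 falls with it, and the 3 replicate 1 pools lie at the low end of HNF4A, between -0.53 and -0.37.

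The level of GATA4 relative to HNF4A and to GATA6 was lower in both low glucose media than in control. For each 100 counts of HNF4A, libraries held 24.5, 19.7 and 23.9 counts of GATA4 in low glucose with BHB and 19.0, 17.3 and 13.8 in low glucose, against 67.0, 51.3 and 60.6 in control. Per 100 counts of GATA6 the values were 2.00, 4.15 and 2.28 with BHB, 2.25, 3.28 and 1.84 in low glucose and 7.76, 6.90 and 7.53 in control. Neither ratio overlapped between control and the low glucose media, but nor did GATA4 by itself. GATA4 per HNF4A was highest in replicate 1 of all 3 media.

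APOA1 per 100 counts of HNF4A was 285, 374 and 246 with BHB and 272, 328 and 272 in low glucose. In control it was 422, 409 and 496. This ratio did not overlap between control and the low glucose media, although neither gene passed by itself. HNF4A per 100 counts of GATA6 did overlap, at 8.16, 21.0 and 9.54 with BHB, 11.8, 18.9 and 13.3 in low glucose and 11.6, 13.4 and 12.4 in control. These ratios depend on transcript length as well as on level and were compared between libraries alone. They were chosen after the values were seen and were not tested.

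**Figure D4:**
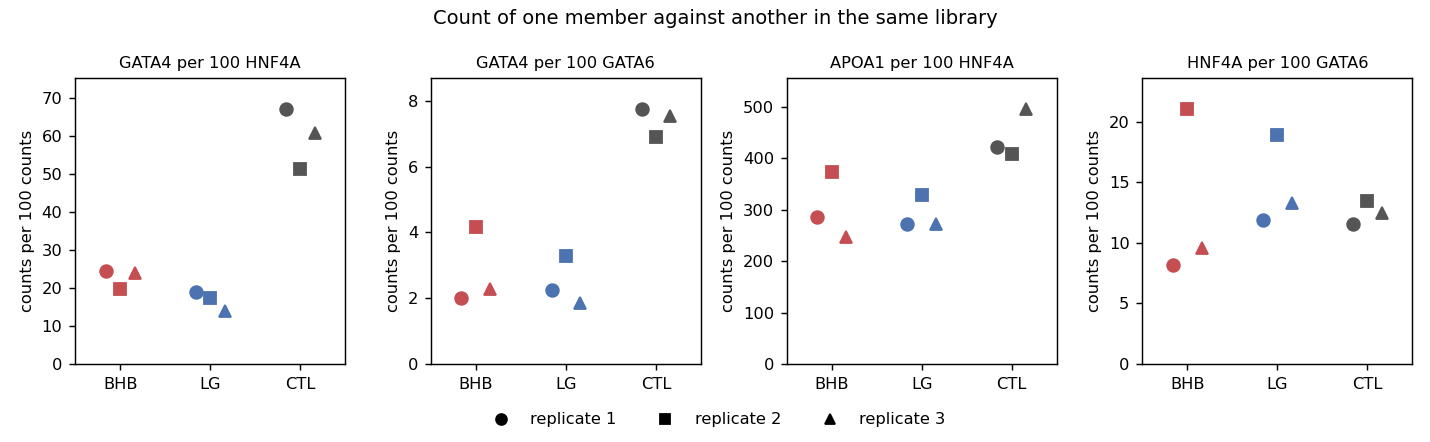
Counts of one member per 100 counts of another in the same library, on axes that start at 0; BHB is low glucose with BHB, LG low glucose and CTL control, and symbols are replicates. GATA4 per 100 HNF4A lies between 13.8 and 24.5 in the 6 low glucose libraries and between 51.3 and 67.0 in the control libraries, while HNF4A per 100 GATA6 overlaps between media.

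The genes most like each member over the 9 libraries were found by Pearson's r of log2 CPM among 14649 tested genes with a symbol, as a description without a test. The nearest to GATA4 was ISG15, a ubiquitin-like modifier gene induced by interferon (r = 0.98), and the nearest to BMP2 was LDLRAD3 (r = 0.98), with the connexin gene GJA1 in rank 3 (r = 0.98). Among the members, GATA4 and BMP2 were each other's nearest (r = 0.90), at rank 160 and 206 of all genes. All r values here include the differences between media, and both of these genes were called lower in both low glucose media. Over deviations from the mean of each medium, the same pair had r = 0.49 (exact permutation p = 0.292, adjusted p = 0.477). HNF4A was nearest to MRPS16, a mitochondrial ribosomal protein gene (r = 0.99), SOX17 to DECR2 (r = 0.98), and APOA1 to LTBR (r = 0.96), with HNF4A at rank 99 (r = 0.81). GATA6 was nearest to ARL6IP4, PDGFRA to HDDC2, FOXA2 to WDR83OS and RSPO3 to EIF2AK1 (r = 0.99, 0.97, 0.97 and 0.96). All 9 members had a gene at r of 0.96 or more, FOXA2 with its low counts included.

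In a list of further transcription factor genes of hypoblast and endoderm, which leaves out NR5A2, none passed. Of 14 such genes, 13 were tested and 0 passed in either direction in either comparison with control. Their median log2 difference was 0.11 with BHB and 0.23 in low glucose. Across all tested genes, 1.38% with BHB and 2.02% in low glucose were called lower, and 0.00607% in each higher. The 0 of 13 is near those shares. OTX2, a homeobox gene of anterior endoderm and epiblast, averaged 95.8 ± 6.90 CPM with BHB, 101 ± 6.28 CPM in low glucose and 83.0 ± 3.30 CPM in control. GATA5, the family member closest in role to GATA4 and chosen here for that role, stood at -0.45 with BHB (SE 0.352) and -0.19 in low glucose (SE 0.351). FOXA1, LHX1, EOMES and MIXL1 were under 1 CPM in every library.

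Of 18 genes of endoderm basement membrane and uptake, 3 fell with BHB and 2 in low glucose. All tested genes were called lower at 1.38% and 2.02%. SERPINH1, a collagen chaperone gene, averaged 41.6 ± 9.15 CPM with BHB and 41.0 ± 2.36 CPM in low glucose, against 107 ± 8.67 CPM in control (edgeR adjusted p = 0.00325 and 0.0011). CDH2, the N-cadherin gene, averaged 17.5 ± 8.32 CPM and 15.4 ± 3.69 CPM, against 73.7 ± 9.09 CPM in control (edgeR adjusted p = 0.00759 and 0.00309). HSPG2, the perlecan gene, passed with BHB (-0.56, SE 0.123, edgeR adjusted p = 0.0484), a call that held in 7 of 17 alternatives and was lost without any 1 BHB library, low glucose replicate 1 or 2, or control replicate 1 or 3, with RLE factors, in the 6 libraries compared and in replicates 2 and 3 alone. LRP2, the megalin gene of endocytic endoderm, averaged 1001 ± 50.4 CPM with BHB, 1234 ± 437 CPM in low glucose and 1035 ± 141 CPM in control and did not pass, nor did FN1 (0.14 with BHB and 0.36 in low glucose). The list's median was -0.16 with BHB and -0.11 in low glucose.

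Most secreted products of later yolk sac were near 0. Of 23 genes of apolipoproteins and other yolk sac proteins, 13 were under 1 CPM in every library, among them APOA2, APOB, APOC3, AFP, TTR and ALB, and 14 were tested. In each comparison with control 1 of these 14 was called lower, where 1.38% of all tested genes with BHB and 2.02% in low glucose were. That gene was RBP4, which encodes the retinol carrier. RBP4 averaged 4.52 ± 1.10 CPM with BHB and 5.75 ± 1.23 CPM in low glucose, against 14.9 ± 5.44 CPM in control (edgeR adjusted p = 0.0127 and 0.0282). Its call held in 15 and 11 of 17 alternatives and was lost in both without control replicate 1 and in replicates 2 and 3 alone, and in low glucose also without control replicate 3 or any 1 low glucose library. APOE did not pass, at -0.06 with BHB (SE 0.283) and -0.51 in low glucose (SE 0.284). The median of the list was -0.02 with BHB and -0.06 in low glucose.

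Around BMP2, 2 of 26 tested genes of the BMP pathway fell with BHB and 3 in low glucose, where 1.38% and 2.02% of all tested genes were called lower. The list had medians of -0.19 and -0.12. BMPR1B, a type I BMP receptor gene, averaged 1.94 ± 0.455 CPM with BHB and 1.07 ± 0.279 CPM in low glucose, against 9.14 ± 2.30 CPM in control (edgeR adjusted p = 0.00433 and 0.000728). ID3, a gene induced by BMP, averaged 1.57 ± 0.467 CPM and 1.66 ± 0.377 CPM, against 7.72 ± 2.63 CPM in control (edgeR adjusted p = 0.00759 and 0.00569), and lost both calls in replicates 2 and 3 alone. GREM1, a secreted BMP antagonist gene, passed in low glucose at -2.50 (SE 0.536, edgeR adjusted p = 0.0304), a call that held in 10 of 17 alternatives and was lost without any 1 low glucose library or control replicate 2 or 3, in limma-voom and in replicates 2 and 3 alone. The genes of highest CPM in the list, MSX2, a homeobox target of BMP, and SMAD1, a transducer of the signal, did not pass, at 0.21 and 0.06 with BHB and 0.07 and -0.07 in low glucose. ID1, another target, and the receptor gene BMPR1A, both chosen for their roles, stood at -0.31 and -0.16 with BHB and 0.06 and -0.11 in low glucose. Other genes of the list, among them SMAD9 and FST, had larger falls in both comparisons without passing.

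Around PDGFRA, 2 of 10 ligand and partner genes fell with BHB and 2 in low glucose, PDGFC and PDGFRB in both. Among all tested genes, 1.38% with BHB and 2.02% in low glucose were called lower. PDGFC, a ligand gene, averaged 4.68 ± 2.63 CPM with BHB and 2.71 ± 0.412 CPM in low glucose, against 25.6 ± 6.34 CPM in control (edgeR adjusted p = 0.0105 and 0.00178), and lost its call with BHB without control replicate 3. PDGFRB, the receptor gene of mesenchymal cells, averaged 3.00 ± 1.25 CPM and 3.06 ± 0.984 CPM, against 14.3 ± 2.62 CPM (edgeR adjusted p = 0.00673 and 0.00461), and lost its call with BHB in replicates 2 and 3 alone. PDGFA, named for its role as the ligand of PDGFRA in the blastocyst, did not pass, at 36.8 ± 2.24 CPM, 38.8 ± 2.33 CPM and 32.7 ± 5.10 CPM in low glucose with BHB, low glucose and control. KIT, the gene next to PDGFRA, and STAT3 did not pass either. The median of the list was 0.05 with BHB and 0.0045 in low glucose.

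Of 23 tested genes of FGF and MAP kinase signalling, which acts upstream of GATA6, 1 fell with BHB and 2 in low glucose, where 1.38% and 2.02% of all tested genes were called lower. The list had medians of 0.0015 and 0.01. SPRY1, a feedback inhibitor gene, averaged 0.514 ± 0.133 CPM and 0.422 ± 0.135 CPM, against 2.78 ± 1.42 CPM in control (edgeR adjusted p = 0.0421 and 0.0181), and its calls held in 6 and 11 of 17 alternatives, both being lost without low glucose replicate 1 or 2 or control replicate 1 or 3, in limma-voom and in replicates 2 and 3 alone. The call with BHB was also lost without any 1 BHB library, in the 6 libraries compared and under the replicate block, at adjusted p = 0.0639 by edgeR. FGFR1 fell in low glucose at -0.97 (SE 0.201, edgeR adjusted p = 0.0255), a call that held in 12 of 17 and was lost without low glucose replicate 1 or 2 or control replicate 1 or 3 and in replicates 2 and 3 alone. FGFR4, another receptor gene of the list, stood at 0.29 with BHB and 0.27 in low glucose without passing.

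In the R-spondin and WNT list, 0 of 18 tested genes passed in either comparison, with medians of -0.09 with BHB and -0.13 in low glucose. That is near the shares over all tested genes, of which 1.38% and 2.02% were called lower and 0.00607% in each higher. RSPO1, RSPO2 and RSPO4 were under 1 CPM in every library, so RSPO3 was the R-spondin gene measured above that level. LGR4, a receptor gene for R-spondins chosen for that role, averaged 27.9 ± 4.08 CPM with BHB, 28.3 ± 5.72 CPM in low glucose and 32.4 ± 8.42 CPM in control. CTNNB1, which encodes beta-catenin, stood at -0.07 with BHB and -0.04 in low glucose, and the co-receptor gene LRP5 at 0.0064 and -0.26.

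No tested marker of the other lineages of the blastocyst passed. Of all tested genes, 1.38% with BHB and 2.02% in low glucose were called lower, and 0.00607% in each higher. For lists of this size, 0 calls is near those shares. Of 17 epiblast genes tested, 0 passed, with medians of 0.18 with BHB and 0.11 in low glucose, and the summed level of the list was 3712 to 4064 CPM with BHB, 3239.7 to 4282 CPM in low glucose and 2993 to 3644 CPM in control. POU5F1, the gene of the pluripotency factor OCT4, stood at 0.15 and 0.07, and ESRRB at 0.13 and 0.07. NANOG, named for its opposition to GATA6, averaged 46.5 ± 25.3 CPM with BHB, 51.1 ± 18.5 CPM in low glucose and 45.7 ± 10.9 CPM in control. Of 22 trophectoderm genes 0 passed, with medians of 0.16 and 0.19, and the keratin genes KRT8 and KRT18 stood at 0.14 and 0.20 with BHB and 0.05 and 0.11 in low glucose.

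**Figure D5:**
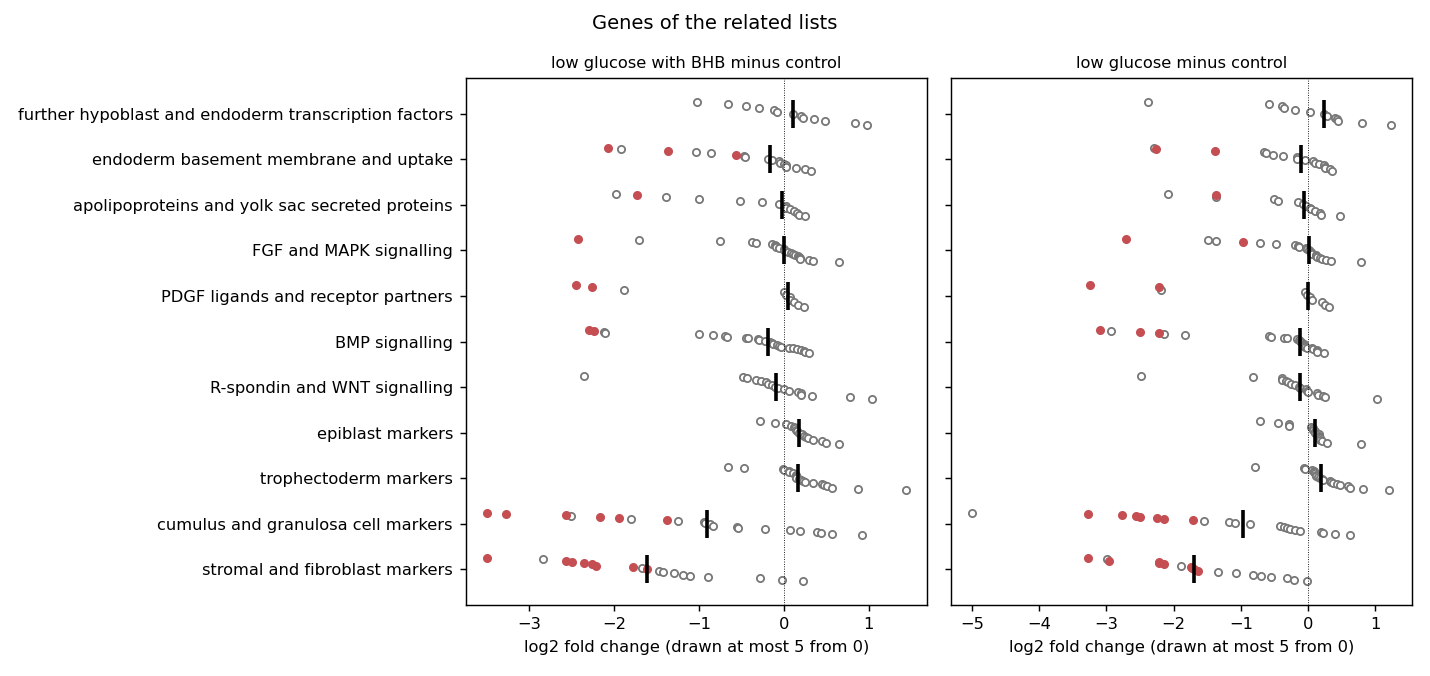
Log2 fold change against control of each tested gene of the 11 related lists, with BHB on the left and in low glucose on the right; filled red points passed an adjusted p of 0.05 and black bars are list medians. The stromal and the cumulus lists have medians of -1.61 and -0.90 with BHB and -1.70 and -0.98 in low glucose, and the other lists lie between -0.19 and 0.23.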

How the data were processed

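Polyadenylated RNA of 9 blastocyst pools was sequenced from NEBNext Ultra II libraries, per the labels' protocols. The authors deposited estimated counts per gene, of which 19.2% are not whole numbers (tolerance 1e-06); fastp, kallisto, DESeq2 and build bosTau9 appear in the submitters' processing notes, without versions or roles. The counts were rounded and fitted in edgeR 4.0.16 (R 4.3.3): filterByExpr by medium (minimum count 10, minimum total 15), TMM factors, quasi-likelihood tests (two-sided) in 1 model of the 9 libraries by medium and Benjamini-Hochberg adjustment over 16469 genes at 0.05. Standard errors come from the fold change and F statistic. CPM are TMM-scaled, and correlations and principal components were computed on log2 CPM (prior count 2). The steps were tested on simulated data. Alternatives were the replicate block, RLE factors, no filter, a filter at a mean of 50 counts, the 6 libraries compared, DESeq2 1.42.0, limma-voom (limma 3.58.1) and leaving out each library; replicates 2 and 3 alone were added after the data were seen. The members and the 11 gene lists were chosen with earlier results of these data known. Named genes are the members, from each list up to 3 passing genes of smallest p per comparison and the 2 of highest mean CPM, and genes said to be chosen for a role, which were added with their values seen. Some genes of the lists are not reported here by name. Replicate numbers were checked for pairing. Deviations of same-numbered libraries correlated at 0.115, 0.243 and 0.102 between the low glucose media and at 0.0417 to 0.144 against control. These ranges overlap and were not set against differently numbered libraries, so they do not show pairing. The labels do not state it either. No replicates agreed within sampling noise (smallest chi-square per degree of freedom 39.6). Figures were drawn with matplotlib 3.10.9.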

Additional observations from a re-analysis of the deposited data

How the results depend on the processing

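GATA4 in low glucose and BMP2 in both comparisons with control kept their calls in all 17 alternatives, and GATA4 with BHB kept its call in 9 of 17. DESeq2 called 557 genes in low glucose and 420 with BHB against control, and 2 between the low glucose media, where edgeR called 334, 228 and 0. Leaving out 1 library at a time gave 196 to 391 genes in low glucose and 91 to 257 with BHB, with 2 members called in low glucose and 1 or 2 with BHB. In replicates 2 and 3 alone, 99 genes passed with BHB and 226 in low glucose. The members called with BHB came to 1 in that fit and to 1 in the fit of the 6 libraries compared, in each case BMP2. The replicate block gave 278 genes with BHB and 405 in low glucose against control, and 0 between the low glucose media. It changed no member's call: GATA4 stood at -1.18 with BHB (edgeR adjusted p = 0.00673) and -1.48 in low glucose (edgeR adjusted p = 0.00125). No called value changed sign. The causes of these changes were not tested. The counts of FOXA2, at most 45 in a library, limit what can be read from it.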

Other observations

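No tested gene that neighbours a member on its chromosome passed in any comparison. The order of genes came from RefSeq's table of the ARS-UCD2.0 assembly, which is not that of the counts, and a neighbour is the nearest protein-coding gene with a symbol on each side. Of the 2 neighbours of GATA4, NEIL2, a DNA glycosylase gene, averaged 1.81 ± 0.176 CPM in low glucose with BHB, 1.48 ± 0.558 CPM in low glucose and 1.92 ± 0.461 CPM in control (SD, n = 3 each), and BLK had too few counts to be tested. FERMT1, beside BMP2, averaged 5.75 ± 1.16 CPM with BHB, 5.17 ± 1.97 CPM in low glucose and 4.57 ± 0.437 CPM in control, and HAO1 had no counts. KIT, which lies next to PDGFRA and encodes a related receptor, stood at -0.0031 log2 with BHB and 0.30 in low glucose against control. APOC3, next to APOA1 in the apolipoprotein cluster, averaged 0.169 ± 0.156 CPM, 0.399 ± 0.0864 CPM and 0.441 ± 0.196 CPM.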
